A study of Mus musculus with 9 samples.

Results

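The collagen and laminin genes are described here across synchronized male germ cells that entered meiosis with and without retinoic acid (RA). They were chosen by name, as every gene of the count table called Col or Lam with the numbers of a chain and with at least 30 counts summed over 9 libraries, and 53 of the 24505 genes in the table met this rule. Of these, 43 encode collagen chains and 10 encode laminin chains. The names Col9a1 and Lamb3 fitted the pattern but stayed under the count minimum. The cells came from Uchl1-eGfp mice outcrossed with CD-1 mice, whose transgene marks spermatogonia with bright and preleptotene (PL) spermatocytes with dim EGFP from the Uchl1 promoter, and testes of several males of a litter were pooled before sorting by fluorescence. All 3 groups carried this transgene, all received the RA synthesis inhibitor WIN 18,446 at 100 µg per g body weight from postnatal day (P) 1 to P10 by the series' design or P11 by the sample records, and all received 10 µl of RA at 10 µg per µl on P11. The groups were In/B, EGFP-bright intermediate and type B spermatogonia at P17 after the inhibitor was stopped, RA-sufficient PL, EGFP-dim spermatocytes at P19 after the same regimen, and RA-deficient PL, EGFP-dim spermatocytes at P19 from mice in which the inhibitor was continued until euthanasia, with 3 libraries in each.

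Collagens and laminins are secreted matrix proteins. Each molecule is assembled from several chains, so the chains a cell expresses set which molecules it can make. Collagen IV and laminin form the sheets of the basement membrane on which the Sertoli cells and spermatogonia of a seminiferous tubule rest, while fibrillar collagens and collagen VI fill the connective tissue outside it, where peritubular myoid cells and fibroblasts are main sources. Germ cells touch this matrix only while they are spermatogonia and early spermatocytes at the base of the tubule, before they pass the Sertoli cell barrier.

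Total counts ran from 12612959 to 27042274 per library, and 3 counts correspond to 0.111 to 0.238 counts per 1000000 (CPM) at these depths. In each group 1 library stood further from the others than these did from each other, by the chi-square per degree of freedom of their counts. For In/B library 1 the distances were 40.3 and 35.8, against 6.15 between the others, for RA-sufficient library 1 they were 42.6 and 59.4, against 10.7, and for RA-deficient library 3 they were 108 and 107, against 19.8. The RA-deficient libraries also differed in markers of spermatogonia. Kit, a receptor of differentiating spermatogonia, had 14020 and 13151 counts in RA-deficient libraries 1 and 2 and 465 in library 3, beside 5861 to 8660 in In/B and 457 to 557 in RA-sufficient PL. Dmrt1, a transcription factor of spermatogonia, had 11508, 12252 and 2532 counts in the RA-deficient libraries, 9444 to 14220 in In/B and 979 to 1650 in RA-sufficient PL, and Sohlh1, another such factor, had 1520, 1645 and 372, beside 1122 to 1938 and 77 to 243. By these counts, which are not scaled for depth, libraries 1 and 2 were within or above the range of In/B. Library 3 was closer to RA-sufficient PL. On the scaled level Dmrt1 averaged 352 ± 209 CPM in RA-deficient PL, 594 ± 101 in In/B and 73.9 ± 2.56 in RA-sufficient PL. Stra8, a gene that RA induces, had 9427, 9221 and 1865 counts in the RA-deficient libraries, 973 to 4353 in In/B and 2081 to 6035 in RA-sufficient PL. The totals were 25048240 to 27042274 counts in RA-deficient and 12612959 to 21833333 in RA-sufficient PL, so these unscaled counts do not rank the groups. Results that the third RA-deficient library decides are given with and without it. Germ cell markers were abundant in every library, with summed levels of 5758 to 7011 CPM in In/B, 3288 to 3467 in RA-sufficient PL and 5218 to 7386 in RA-deficient PL. Markers of Sertoli cells, the somatic cells of the tubule, were detected as well, and the 16 of 17 listed genes that the table held summed to 206 to 623 CPM in In/B, 4215 to 5851 in RA-sufficient PL and 591 to 924 in RA-deficient PL. The 12 peritubular and stromal markers summed to 95.2 to 119, 249 to 317 and 232 to 340 CPM in the same order. In sorted bulk cells, a smaller share of cells of a type and less RNA per cell cannot be told apart.

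Several of these genes lie beside a partner chain, and their start regions are shown because the pairs bear on how the chains were measured. In the mm9 build used for counting, Col4a4 and Col4a3 are transcribed away from each other on chromosome 1 with 71 bases between their annotated starts (chr1:82583425-82583495, plus strand shown). Col4a1 and Col4a2 on chromosome 8 are also head to head, and their annotated spans overlap by 22 bases. The promoter windows that follow, from 250 bases before to 50 after a start, are those of RefSeq in the later build GRCm38.p6, so their positions cannot be set beside the mm9 positions. They are given for Col4a2, the partner of Col4a1 (chr8:11312555-11312854, plus strand), for Lama5 (chr2:180225810-180226109, minus strand) and Lamb2 (chr9:108479612-108479911, plus strand), the leading laminin chains, and for both listed starts of Col18a1 (chr10:77166481-77166780 and chr10:77113656-77113955, minus strand), a gene with alternative promoters whose transcripts a count per gene adds together. Capitals mark the TATA box (searched as TATAAA), the CCAAT box (searched by the letters of its name) and the GC box (searched as GGGCGG) on either strand, and none of the motifs searched contains another.
Col4a4 to Col4a3: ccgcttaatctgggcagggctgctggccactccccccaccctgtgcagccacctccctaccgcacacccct
Col4a2: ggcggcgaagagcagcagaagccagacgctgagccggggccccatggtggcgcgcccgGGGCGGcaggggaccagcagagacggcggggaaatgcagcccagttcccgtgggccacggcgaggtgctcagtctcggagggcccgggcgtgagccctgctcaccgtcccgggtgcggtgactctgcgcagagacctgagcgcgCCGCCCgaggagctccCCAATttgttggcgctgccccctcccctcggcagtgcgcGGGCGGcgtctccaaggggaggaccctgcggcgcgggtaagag
Lama5: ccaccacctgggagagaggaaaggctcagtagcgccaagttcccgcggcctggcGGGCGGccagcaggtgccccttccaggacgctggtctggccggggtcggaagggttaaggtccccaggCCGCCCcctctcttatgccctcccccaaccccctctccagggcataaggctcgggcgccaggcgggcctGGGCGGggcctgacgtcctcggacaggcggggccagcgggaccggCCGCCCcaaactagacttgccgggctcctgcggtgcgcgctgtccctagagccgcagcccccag
Lamb2: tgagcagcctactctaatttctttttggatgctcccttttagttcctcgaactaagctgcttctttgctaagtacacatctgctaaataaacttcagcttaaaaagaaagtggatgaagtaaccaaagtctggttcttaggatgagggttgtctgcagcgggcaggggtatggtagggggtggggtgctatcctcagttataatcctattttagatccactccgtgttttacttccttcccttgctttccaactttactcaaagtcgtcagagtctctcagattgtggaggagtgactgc
Col18a1 upstream start: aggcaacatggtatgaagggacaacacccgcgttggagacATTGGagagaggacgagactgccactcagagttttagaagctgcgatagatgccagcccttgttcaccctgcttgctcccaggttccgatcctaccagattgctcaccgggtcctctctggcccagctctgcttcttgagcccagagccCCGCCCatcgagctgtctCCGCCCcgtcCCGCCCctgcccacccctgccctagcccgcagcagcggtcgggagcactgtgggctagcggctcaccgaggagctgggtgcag
Col18a1 downstream start: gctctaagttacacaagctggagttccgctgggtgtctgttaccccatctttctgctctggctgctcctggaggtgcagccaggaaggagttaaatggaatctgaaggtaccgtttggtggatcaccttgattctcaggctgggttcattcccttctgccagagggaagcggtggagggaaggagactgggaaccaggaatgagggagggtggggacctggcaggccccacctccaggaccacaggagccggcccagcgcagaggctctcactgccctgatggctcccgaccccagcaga

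The stretch between Col4a4 and Col4a3 was 69% G and C and held none of the motifs. The windows of Col4a2 and Lama5 were 73.7% and 72.7% G and C with 3 and 4 GC boxes, while that of Lamb2 was 44% G and C with none, and the upstream start of Col18a1 held 3 GC boxes against 0 at the downstream start. Promoter windows were matched for 38 of the 53 genes, 40 windows in all. A GC box was found in 65% of these windows and in 35.7% of all 32851 promoter windows of this length. For the CCAAT box the shares were 32.5% and 37.4%, and for the TATA box 12.5% and 13.6%. The direct repeat of AGGTCA with a spacer of 5 bases, a form to which RA receptors bind, was in 0 of the 40 windows and in 0.00913% of all. Only 3 of the 32851 windows held this exact repeat, so its absence from 40 tells nothing about these genes. CNCCTCAG, a motif linked to STRA8, the RA-induced protein of premeiotic germ cells, was in 12.5% of the windows and in 7.94% of all. Each motif was searched on both strands, and a match of letters is not a site in use.

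Transcripts of 42 of the 53 genes were counted in all 9 libraries, and their totals over the 9 libraries ranged from 30 for Col10a1 to 37821 for Lamb2. Together they made up between 0.0758% and 0.145% of all counts. Their summed level was 843, 765 and 751 CPM in the In/B libraries, 1329, 1393 and 1377 in the RA-sufficient PL libraries and 1251, 1157 and 998 in the RA-deficient PL libraries. The In/B libraries were the lowest and the groups did not overlap. The sum was led by few genes, as the plot of levels by library shows, and chains of a single class ran in opposite directions within it.

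**Figure D1:**
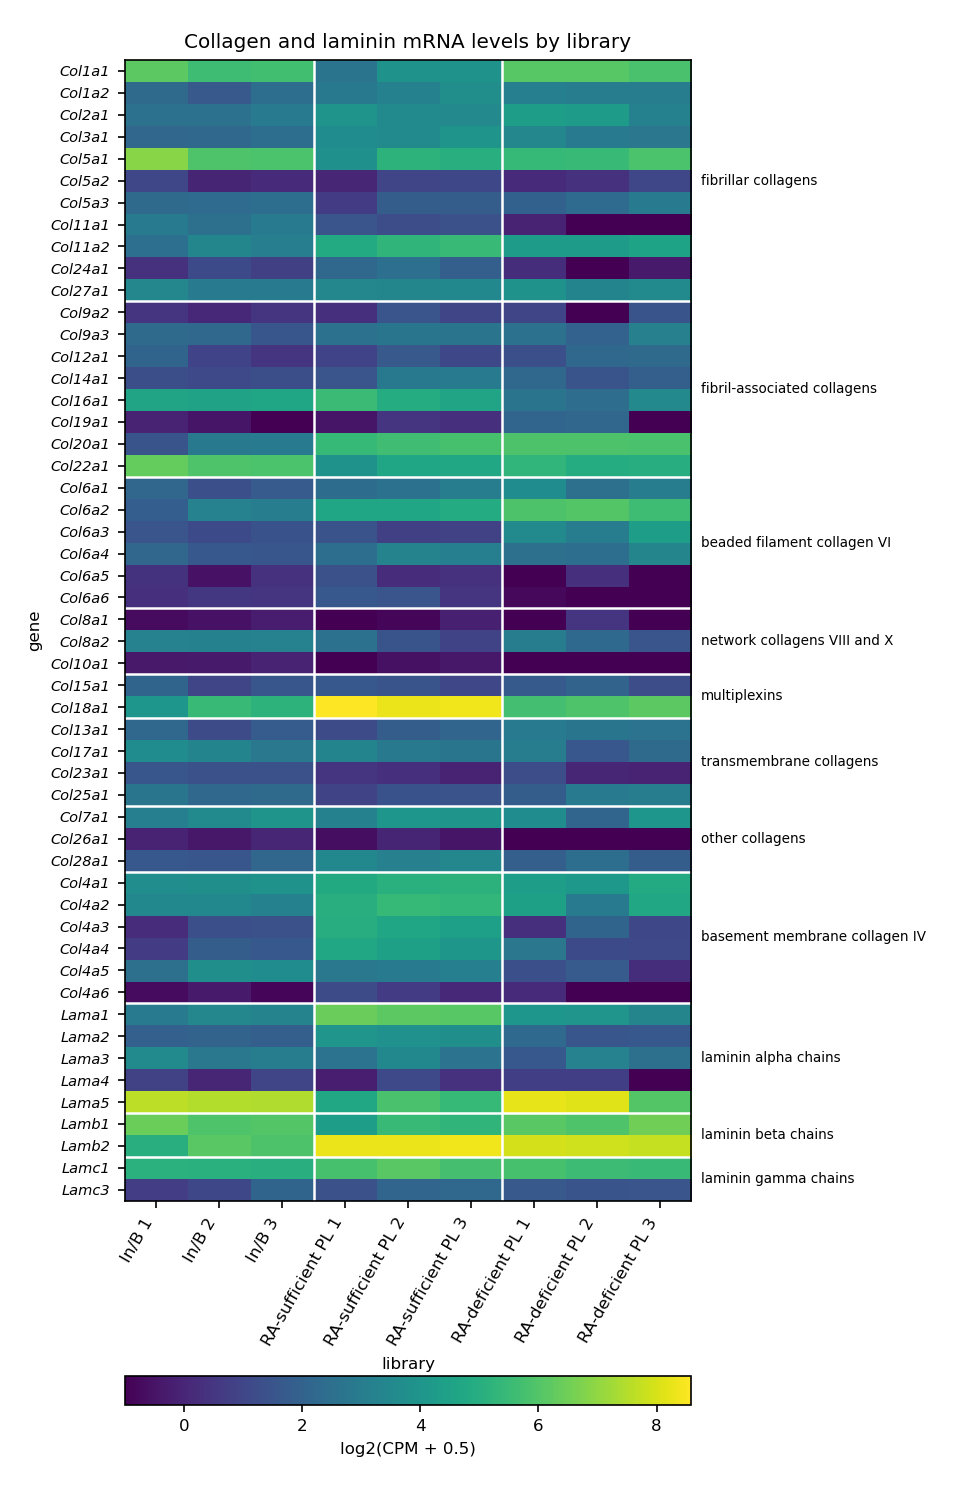
Levels of 52 collagen and laminin genes (rows, by class) in the 9 libraries (columns), as log2(CPM + 0.5) on the colour scale, with CPM scaled by TMM over all libraries. Col18a1 and Lamb2 were highest in the RA-sufficient PL libraries, Lama5 was lower there than in In/B, and Lama5 in the third RA-deficient library (63.8 CPM) fell short of the other two of its group.

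A gene was called different between groups at an absolute log2 fold change above 1 with an adjusted p below 0.05, where p came from the quasi-likelihood test of edgeR and was adjusted over all genes tested by the Benjamini-Hochberg method. Between RA-sufficient PL and In/B, 28 of the 49 collagen and laminin genes tested were called (57.1%), against 45.3% of all 15001 genes tested. Of these, 20 were higher and 8 lower in RA-sufficient PL, where 26.0% and 19.3% of all genes tested were. Between RA-deficient PL and In/B, 12 of 49 were called (24.5%, against 23.0% of all genes), 8 higher in RA-deficient PL against a background of 11.3% and 4 lower against 11.7%. Between the PL groups, 14 of 50 were called (28.0%, against 15.6% of all genes). Of these, 5 were higher in RA-deficient PL and 9 lower, with backgrounds of 4.53% and 11.1%. The share called was thus near the background for RA-deficient PL against In/B. The median log2 fold change of the genes tested was 0.72, 0.48 and -0.28 in the 3 comparisons, beside 0.04, 0.00 and -0.09 over all genes.

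The groups differed in scaling, and the split of calls moved with it. With library size alone in place of TMM, the calls of RA-deficient PL against In/B were 6 higher and 5 lower, and between the PL groups 3 higher and 10 lower. Over all genes that setting moved the median log2 fold change from 0.00 to -0.31 and from -0.09 to -0.27, and the share of called genes that were higher in RA-deficient PL from 49.1% to 28.8% and from 29.0% to 17.7%. Without the third RA-deficient library, 15 of 50 genes tested were called between RA-deficient PL and In/B, 11 of them shared with the 12 above. Between the PL groups 16 of 50 were called, 13 of them shared with the 14. Of all genes, 25.7% and 28.2% were called in these fits, so that the share between the PL groups was then closer to the background. In all, 33 of the 53 genes were called in at least 1 comparison and 20 in none. The matching share of all genes was not counted, so these numbers have no background beside them. All comparisons use the same 9 libraries in pairs, so that they are not independent of each other.

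**Figure D2:**
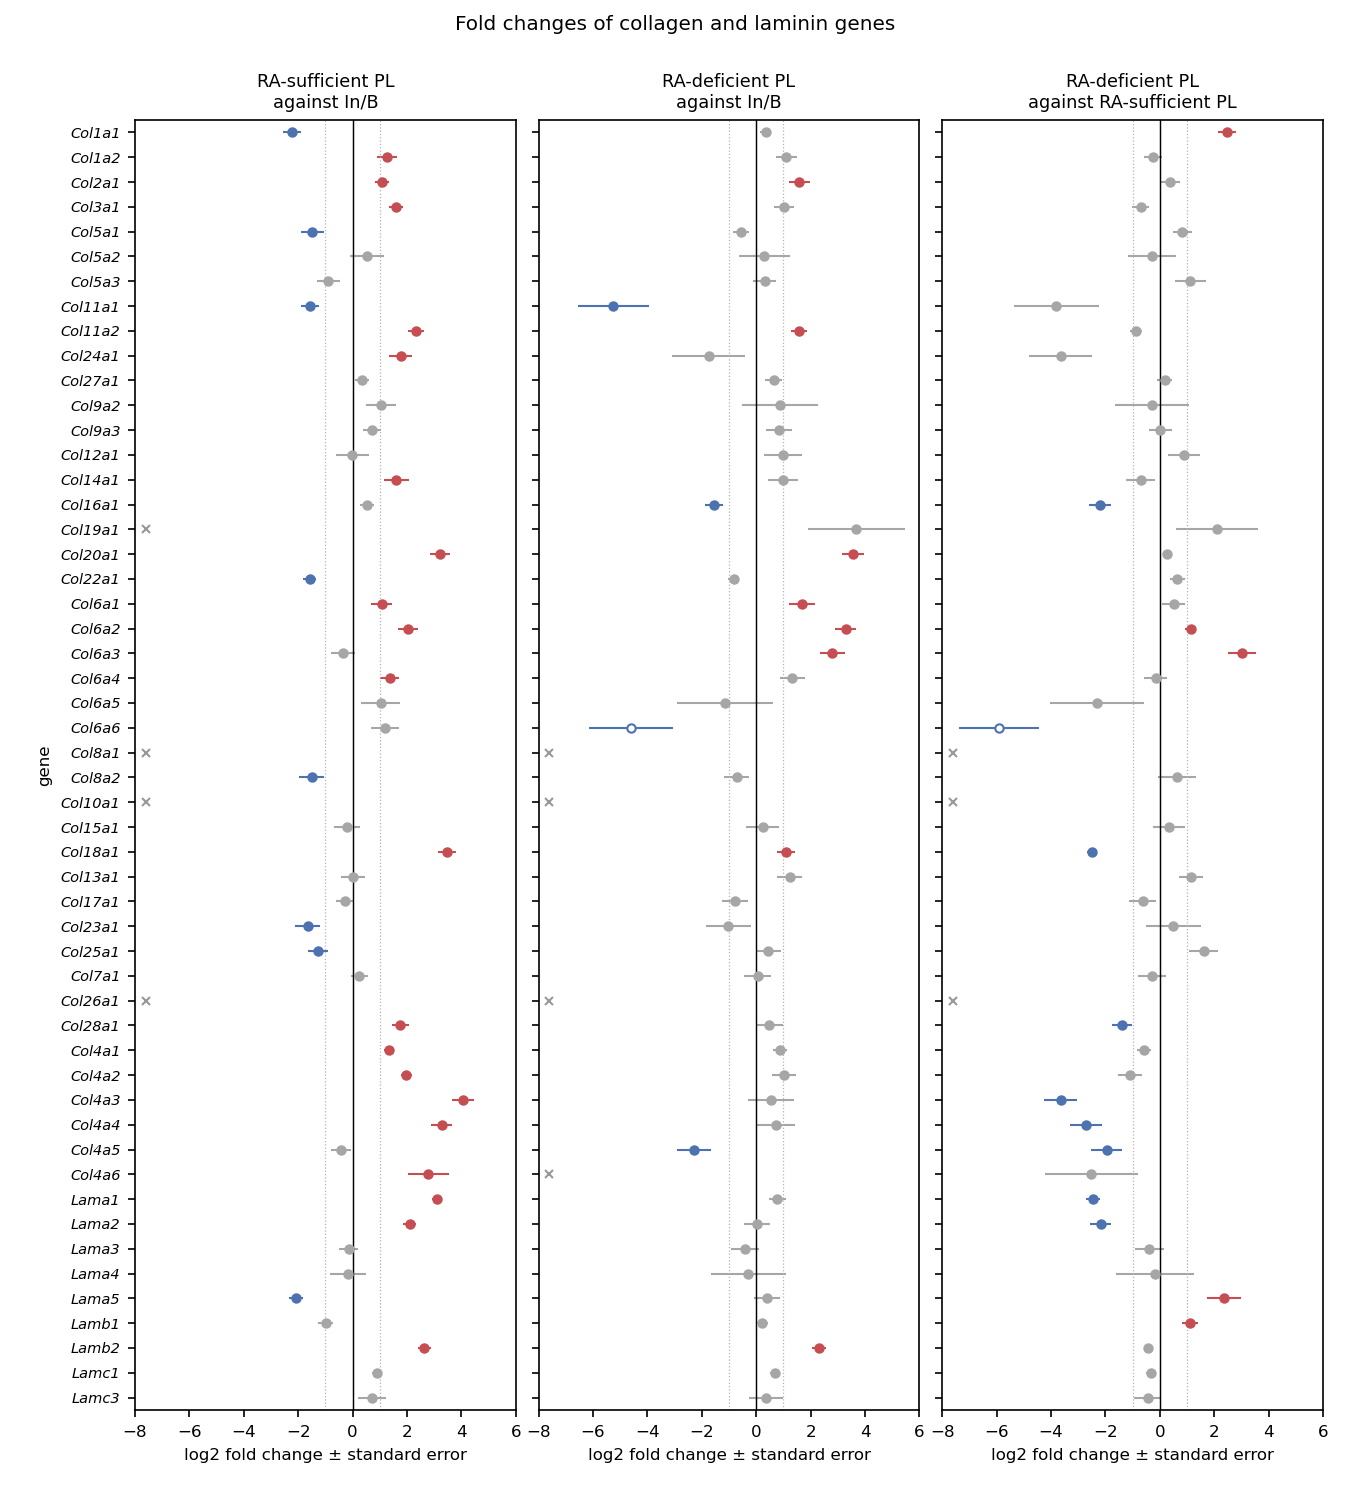
Log2 fold changes (points) with standard errors (bars) for 52 genes in the 3 comparisons, red where called higher, blue where called lower and grey where not called, with dotted lines at -1 and 1 and crosses at the left edge for genes not tested. Open points mark Col6a6, whose RA-deficient libraries held at most 3 counts each, so that its fold change has no firm size.

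Laminin alpha chains are the long arms by which a laminin molecule binds cell surface receptors, and the alpha chain that dominated differed between the groups. Lama5, the most widespread alpha chain of adult basement membranes, stood at 198, 177 and 173 CPM in the In/B libraries, 25.5, 56.6 and 42.9 in RA-sufficient PL and 300, 276 and 63.8 in RA-deficient PL. RA-sufficient PL lay below In/B in every library, and the RA-deficient libraries spanned both sides of In/B. RA-deficient libraries 1 and 2, with the high Lama5 levels, were those with many counts of Kit, Dmrt1 and Sohlh1, and the part of this in the difference was not tested. Lama5 was called lower in RA-sufficient PL than in In/B, with a log2 fold change of -2.07 (SE 0.26, adjusted p = 0.000151). Between the PL groups its log2 fold change was 2.36 (SE 0.61, adjusted p = 0.0367), a call that was kept without the third RA-deficient library (2.79, adjusted p = 0.000484) and lost without any other single library, with log2 fold changes of 2.04 to 2.63 and adjusted p values of up to 0.138. Against In/B, RA-deficient PL was not called (0.39, SE 0.48, adjusted p = 0.574). Without the third RA-deficient library it was higher than In/B at 0.83 (adjusted p = 0.000621), which passed the adjusted p but not the fold.

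Lama1, an alpha chain of embryonic basement membranes that persists in the seminiferous tubule, ran the other way. Its libraries read 7.16, 10.4 and 9.27 CPM in In/B, 84.0, 71.3 and 68.5 in RA-sufficient PL and 16.0, 15.3 and 9.84 in RA-deficient PL. It was called higher in RA-sufficient PL than in In/B (log2 fold change 3.11, SE 0.19, adjusted p = 8.48e-06) and lower in RA-deficient than in RA-sufficient PL (-2.45, SE 0.25, adjusted p = 0.00105), and with the RA-deficient libraries partly within the In/B range it was not called between those groups (0.78, adjusted p = 0.0848). Lama2, the main alpha chain of muscle and peripheral nerve, showed the same order at lower levels. It was found at 3.35, 3.67 and 3.22 CPM in In/B, 15.3, 13.9 and 13.1 in RA-sufficient PL and 4.32, 2.46 and 2.58 in RA-deficient PL. Its log2 fold changes were 2.10 (SE 0.25, adjusted p = 0.000123) in RA-sufficient PL against In/B, and -2.18 (SE 0.37, adjusted p = 0.00627) between the PL groups, both called. Lama3, an alpha chain of epithelial anchoring complexes, ranged from 2.60 to 11.2 CPM, Lama4, a chain of vessel basement membranes, stayed at or under 1.64 CPM, and neither was called.

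The balance of the beta chains differed between the groups as well. Lamb1, the common beta chain of early basement membranes, gave 86.7, 61.7 and 65.1 CPM in In/B, 20.5, 44.7 and 37.8 in RA-sufficient PL and 69.0, 60.6 and 91.6 in RA-deficient PL. The RA-sufficient libraries were below all others. Its log2 fold change for RA-sufficient PL against In/B was -0.99 (SE 0.28, adjusted p = 0.0118), just short of the fold required, which it passed without In/B library 2 or 3 or RA-sufficient library 2 or 3 (-1.06 to -1.23). Between the PL groups it was called higher in RA-deficient PL (1.11, SE 0.29, adjusted p = 0.0311), but this was lost without any single library other than the second RA-sufficient PL library, with log2 fold changes of 0.86 to 1.24 in those fits, and with library size alone (0.92, adjusted p = 0.0602).

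Lamb2, the beta chain of the kidney filter and the neuromuscular junction, was the gene with most counts. Its levels were 32.8, 70.2 and 59.3 CPM in In/B, 315, 317 and 332 in RA-sufficient PL and 251, 240 and 216 in RA-deficient PL. Every PL library stood above every In/B library. The log2 fold changes against In/B were 2.63 (SE 0.24, adjusted p = 3.52e-05) in RA-sufficient PL and 2.30 (SE 0.25, adjusted p = 0.000436) in RA-deficient PL, and both calls were kept with every library left out in turn. The PL groups did not overlap either, but their difference was under the fold required (-0.45, SE 0.10, adjusted p = 0.0204).

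Lamc1, the gamma chain of most laminins, was counted at 34.5, 33.7 and 33.0 CPM in In/B, 55.6, 70.6 and 54.3 in RA-sufficient PL and 54.7, 46.5 and 44.6 in RA-deficient PL. All PL libraries exceeded In/B, with log2 fold changes of 0.89 (SE 0.16, adjusted p = 0.00108) and 0.69 (SE 0.17, adjusted p = 0.0131) that passed the adjusted p but not the fold. Lamc3, another gamma chain, ranged from 1.17 to 4.28 CPM and was not called. A stretch of 382 exon bases of Lamc3 is also covered by an annotated transcript on the other strand, which unstranded counting would not tell from it.

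Levels of different genes were compared per kilobase of exon. On this scale Lama5 made up 87.9 ± 0.496% of the alpha chain level in In/B (SD, n = 3), 26.4 ± 8.40% in RA-sufficient PL and 85.5 ± 8.67% in RA-deficient PL. The share of Lama1 was 5.22 ± 1.24%, 57.4 ± 8.58% and 8.58 ± 4.66% in the same order. In the third RA-deficient library Lama5 held 75.6% and Lama1 14%, so that the order of these chains was that of the other RA-deficient libraries even though the Lama5 level was not. Lamb2 made up 56.1 ± 14.2% of the beta chain level in In/B, 94.3 ± 1.95% in RA-sufficient PL and 84.9 ± 3.72% in RA-deficient PL. The ratio of Lamb2 to Lamb1 per length was 0.667, 2.01 and 1.61 in the In/B libraries, 27, 12.5 and 15.5 in RA-sufficient PL and 6.43, 7.00 and 4.16 in RA-deficient PL. The 3 groups did not overlap in it.

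**Figure D3:**
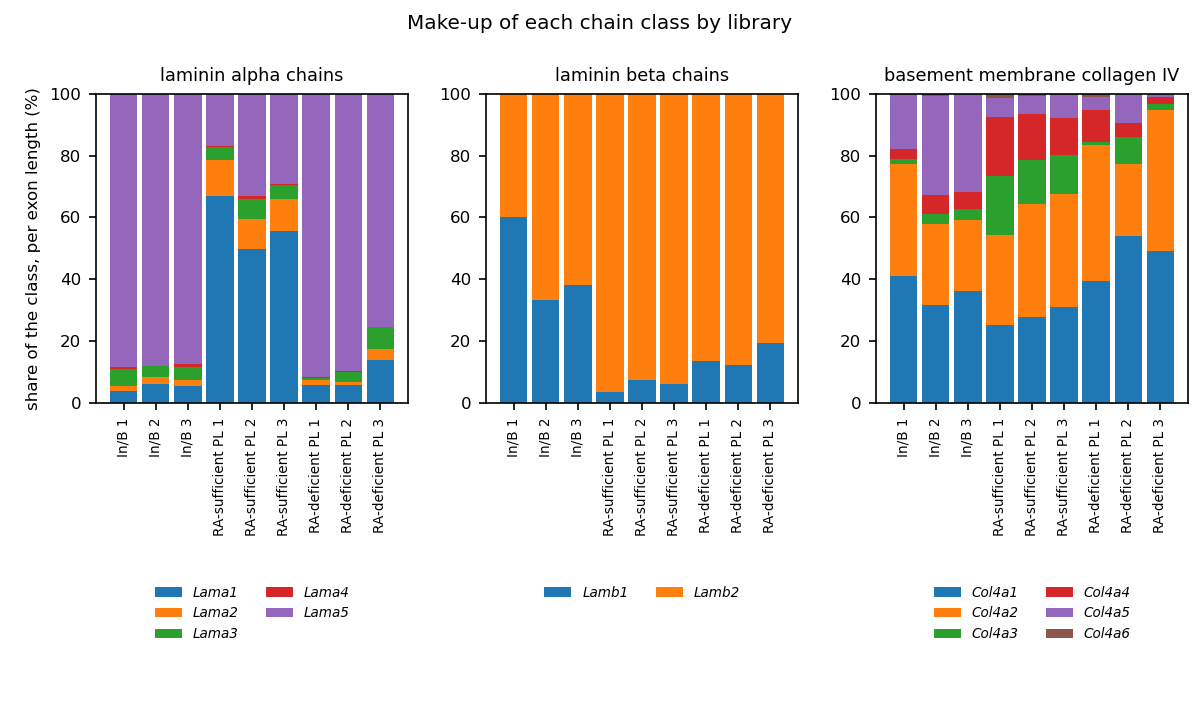
Stacked shares of each chain in the level of its class per exon length (vertical axis, %), for laminin alpha and beta chains and collagen IV in the 9 libraries. Lama5 filled at least 75.6% of the alpha class in every In/B and RA-deficient PL library, and Lama1 between 49.9% and 66.8% of it in RA-sufficient PL.

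Collagen IV builds the second network of the basement membrane. Chains of Col4a1 and Col4a2 are found in nearly all such sheets, and those of Col4a3, Col4a4 and Col4a5 form a separate network in a few tissues, best known from the kidney filter and its loss in Alport syndrome. Of the 6 genes, 5 were called between RA-sufficient PL and In/B, each higher in RA-sufficient PL, 1 was called lower in RA-deficient PL than in In/B, and 3 were called lower in RA-deficient than in RA-sufficient PL, beside backgrounds of 26.0%, 11.7% and 11.1% of all genes in these directions. The summed level of the class was 30.1 to 42.6 CPM in In/B, 121 to 131 in RA-sufficient PL and 31.9 to 58.7 in RA-deficient PL.

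Col4a3 showed the widest change of all these genes between RA-sufficient PL and In/B. It was counted at 0.671, 2.00 and 2.09 CPM in In/B, 31.3, 25.2 and 20.6 in RA-sufficient PL and 0.760, 3.80 and 1.62 in RA-deficient PL, and only the RA-sufficient libraries stood apart. The log2 fold changes were 4.06 (SE 0.41, adjusted p = 5.85e-05) in RA-sufficient PL against In/B, and -3.64 (SE 0.60, adjusted p = 0.00581) between the PL groups, both called with any library left out. Its neighbour Col4a4, whose start lies across the 71 bases printed above, gave 1.12, 3.06 and 2.60 CPM in In/B, 25.9, 21.4 and 16.5 in RA-sufficient PL and 6.44, 1.74 and 1.66 in RA-deficient PL. The RA-sufficient libraries were again higher than the rest. Col4a4 was called higher in RA-sufficient PL than in In/B (3.28, SE 0.39, adjusted p = 0.000121) and lower in RA-deficient than in RA-sufficient PL (-2.71, SE 0.59, adjusted p = 0.0169), the latter lost without the first or the second RA-sufficient library (-2.51 and -2.72, adjusted p = 0.0656 and 0.0526). Per length, Col4a3 stood to Col4a4 as 1.01 ± 0.0283 in RA-sufficient PL, 0.573 ± 0.0884 in In/B and 0.911 ± 0.866 in RA-deficient PL. The pair was thus nearly equal and steady where it was high, and the wide RA-deficient value came from libraries at 0.0985, 1.82 and 0.813.

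The pair on chromosome 8 changed less. Col4a1 had 12.4, 13.3 and 14.2 CPM in In/B, 28.0, 33.6 and 34.8 in RA-sufficient PL and 19.8, 16.6 and 28.9 in RA-deficient PL. Col4a2 read 10.6, 10.7 and 8.70 CPM in In/B, 31.6, 42.3 and 39.9 in RA-sufficient PL and 21.3, 6.97 and 25.8 in RA-deficient PL. Both were called higher in RA-sufficient PL than in In/B, with log2 fold changes of 1.33 (SE 0.19, adjusted p = 0.000304) for Col4a1 and 1.98 (SE 0.20, adjusted p = 5.94e-05) for Col4a2. The means of RA-deficient PL lay between those of the other groups, though its second library was below In/B for Col4a2 and library 3 within the RA-sufficient range for Col4a1, and neither gene was called there against In/B (0.87 with adjusted p = 0.0362, and 1.02 with adjusted p = 0.119). The second RA-deficient library decided the latter, and without it Col4a2 was called higher than in In/B (1.37, adjusted p = 0.0111), as was Col4a1 at the edge of the fold (1.00, adjusted p = 0.0337). For RA-deficient against RA-sufficient PL, Col4a2 gave -1.08 (SE 0.44, adjusted p = 0.116), and without the third RA-deficient library -1.42 (adjusted p = 0.0372).

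Col4a5 and Col4a6 on the X chromosome are head to head with 1308 bases between their starts, and they did not move alike. Col4a5 was found at 5.26, 13.3 and 12.2 CPM in In/B, 6.70, 6.97 and 8.20 in RA-sufficient PL and 2.04, 2.85 and 0.7 in RA-deficient PL. The RA-deficient libraries were the lowest. It was called lower there than in In/B (-2.28, SE 0.62, adjusted p = 0.0222) and than in RA-sufficient PL (-1.96, SE 0.57, adjusted p = 0.043). The first call was lost without In/B library 2 or 3 or RA-deficient library 1 (-2.09, -2.12 and -2.35, adjusted p up to 0.0824), and the other without any RA-sufficient library or RA-deficient library 1 (-1.90 to -2.02, adjusted p up to 0.137). Col4a6 stayed at or under 1.84 CPM, with 0.112, 0.302 and 0.0565 CPM in In/B, 1.84, 1.09 and 0.573 in RA-sufficient PL and 0.6, 0 and 0 in RA-deficient PL. It was called higher in RA-sufficient PL than in In/B (2.78, SE 0.75, adjusted p = 0.01), and between the PL groups only without the first RA-deficient library (adjusted p = 0.0463, against 0.319 with it), which left RA-deficient PL with 0 counts. As a share of the class per length, Col4a5 made up 27.2 ± 8.18% in In/B, 6.47 ± 0.827% in RA-sufficient PL and 4.93 ± 4.17% in RA-deficient PL, while Col4a3 made up 2.82 ± 1.13%, 15.4 ± 3.44% and 3.80 ± 4.08%.

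Multiplexins are collagens of the basement membrane zone with interrupted triple helices. Col18a1, whose cleaved end is endostatin, an inhibitor of vessel growth, was counted at 15.9, 44.9 and 36.1 CPM in In/B, 384, 319 and 331 in RA-sufficient PL and 52.3, 60.6 and 71.1 in RA-deficient PL. The groups did not overlap, with RA-sufficient PL far above the others. Its log2 fold changes were 3.47 (SE 0.34, adjusted p = 7.51e-05) for RA-sufficient PL against In/B, 1.10 (SE 0.34, adjusted p = 0.0383) in RA-deficient PL against In/B, and -2.5 (SE 0.16, adjusted p = 0.000521) between the PL groups. All passed, but the call between RA-deficient PL and In/B was lost without any single library other than the second In/B library, with log2 fold changes of 0.77 to 1.2, and with library size alone (0.79, adjusted p = 0.102). Col15a1, its relative, stayed between 1.51 and 3.80 CPM and was not called.

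**Figure D4:**
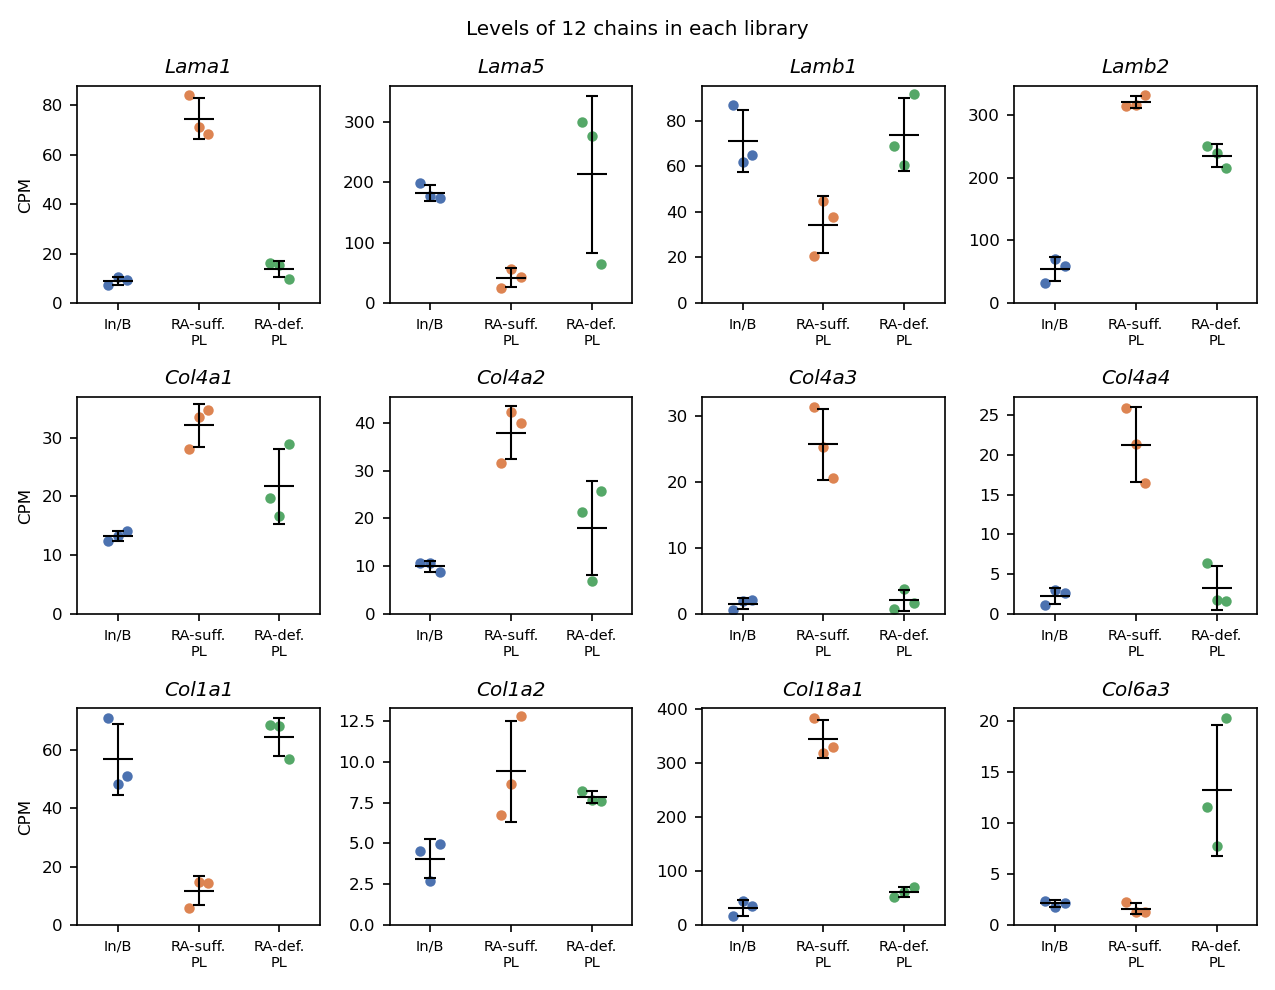
Levels in CPM (vertical axes, linear from 0) of 12 chains in each library (points), with the mean and SD of the 3 libraries of a group (black bars). Lama1, Col4a3, Col4a4 and Col18a1 were high in RA-sufficient PL alone, Lamb2 was high in both PL groups, Col1a1 and Lama5 were low in RA-sufficient PL, and Col6a3 was high in RA-deficient PL.

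Sertoli cell markers varied in the same direction as Lama1, Lama2, Col4a3, Col4a4 and Col18a1. All 16 Sertoli markers in the table were called higher in RA-sufficient PL than in In/B and all 16 lower in RA-deficient than in RA-sufficient PL, where 26.0% and 11.1% of all genes were. For RA-deficient PL against In/B, 1 of the 16 was called, higher. Their summed levels, between 4215 and 5851 CPM in RA-sufficient PL and at most 924 elsewhere, did not overlap between RA-sufficient PL and either other group. Sox9, Wt1 and Gata4, markers of this list, were above 0 in all 9 libraries. The part of Sertoli cell RNA in these differences was not tested. Lama5 and Col1a1 were instead lower in the group in which the Sertoli markers were highest.

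Fibrillar collagens are the ropes of connective tissue. Of the 11 genes, 5 were called higher and 3 lower in RA-sufficient PL than in In/B, 2 higher and 1 lower in RA-deficient PL than in In/B, and 1, higher, in RA-deficient than in RA-sufficient PL. With 11 genes the last 2 of these counts are near or below the backgrounds of 23.0% and 15.6%. Collagen I is assembled from chains of Col1a1 and Col1a2, and in these cells the genes did not change together. Col1a1 stood at 70.8, 48.2 and 51.2 CPM in In/B, 5.96, 14.7 and 14.4 in RA-sufficient PL and 68.5, 68.0 and 56.7 in RA-deficient PL. RA-sufficient PL was below every other library, while the other groups overlapped. It was called lower in RA-sufficient PL than in In/B (-2.22, SE 0.34, adjusted p = 0.000484) and higher in RA-deficient than in RA-sufficient PL (2.47, SE 0.34, adjusted p = 0.00291), and both calls were kept with any library left out.

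Col1a2 was instead counted at 4.53, 2.72 and 4.97 CPM in In/B, 6.77, 8.67 and 12.8 in RA-sufficient PL and 8.24, 7.69 and 7.61 in RA-deficient PL. All PL libraries were above In/B. Col1a2 was called higher in RA-sufficient PL than in In/B (1.27, SE 0.36, adjusted p = 0.0134), a call lost without the second In/B library (1.01, adjusted p = 0.0525) or the third RA-sufficient library (0.98, adjusted p = 0.0655), and not in RA-deficient PL (1.11, SE 0.39, adjusted p = 0.0586), which was called without the third RA-deficient library (1.13, adjusted p = 0.0493). The ratio of Col1a1 to Col1a2 per length was 28.9, 32.8 and 19 in In/B, 1.63, 3.14 and 2.08 in RA-sufficient PL and 15.4, 16.4 and 13.8 in RA-deficient PL. The 3 groups did not overlap, and the RA-sufficient ratio was the lowest. A transcript on the other strand covers 109 exon bases of Col1a1.

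Col3a1, the collagen of reticular fibres and a usual companion of collagen I, followed Col1a2 rather than Col1a1 in direction. Its values were 4.03, 4.08 and 5.03 CPM in In/B, 12, 11.5 and 15.0 in RA-sufficient PL and 10.2, 7.09 and 6.43 in RA-deficient PL. All PL libraries exceeded In/B. It was called higher in RA-sufficient PL than in In/B (1.61, SE 0.26, adjusted p = 0.000693), and RA-deficient PL missed the threshold (1.02, SE 0.37, adjusted p = 0.0645), except without the third RA-deficient library (1.15, adjusted p = 0.0296). Col5a1, which helps to start collagen I fibrils, was found at 119, 60.9 and 58.4 CPM in In/B, 13.4, 35.9 and 32.9 in RA-sufficient PL and 42.3, 45.2 and 57.9 in RA-deficient PL. It was called lower in RA-sufficient PL than in In/B (-1.48, SE 0.42, adjusted p = 0.0139), with the RA-deficient libraries between the groups.

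Fibrillar collagens best known from cartilage were detected as well. Col2a1 read 5.54, 5.52 and 7.07 CPM in In/B, 14.9, 11.3 and 10.9 in RA-sufficient PL and 20, 19.3 and 8.88 in RA-deficient PL, and Col11a2 read 5.14, 10.1 and 8.03, then 28.6, 38.2 and 44.9, then 19, 19.1 and 23.3 CPM in the same order. Every PL library lay above In/B for both genes. Col2a1 was called higher in RA-sufficient PL (1.09, SE 0.26, adjusted p = 0.00593) and in RA-deficient PL (1.58, SE 0.38, adjusted p = 0.014). The first call was lost without the second In/B library (1.00) or the first RA-sufficient library (0.93), and the other without In/B library 1 or 2 or RA-deficient library 1 or 2 (1.38 to 1.52, adjusted p up to 0.0594). Col11a2 was called in both as well, with log2 fold changes of 2.32 (SE 0.29, adjusted p = 0.000151) and 1.57 (SE 0.30, adjusted p = 0.00527). Between the PL groups it was lower in RA-deficient PL by less than the fold required (-0.86, adjusted p = 0.0304), which it reached without the first RA-sufficient library (-1.0, adjusted p = 0.0331) or with library size alone (-1.05, adjusted p = 0.0177).

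Col11a1, whose chain joins that of Col11a2 in collagen XI, went the opposite way, with 7.27, 5.25 and 7.07 CPM in In/B, 2.36, 1.88 and 2.12 in RA-sufficient PL and 0.440, 0 and 0 in RA-deficient PL. The groups did not overlap. It was called lower than In/B in RA-sufficient PL (-1.57, SE 0.32, adjusted p = 0.00252) and in RA-deficient PL (-5.25, SE 1.32, adjusted p = 0.0166), where the size of the fold rests on the 11 counts of a single library, since it was -10.12 without the first RA-deficient library, and the call was lost without In/B library 1 or 3 (adjusted p = 0.0658 and 0.0548). It was not called between the PL groups (-3.80, adjusted p = 0.119) except without the first RA-deficient library (adjusted p = 0.0212), where both remaining libraries were at 0. Col24a1, a minor fibrillar chain, was found at 0.783, 1.74 and 1.24 CPM in In/B, 4.12, 5.09 and 3.26 in RA-sufficient PL and 0.680, 0 and 0.306 in RA-deficient PL. It was called higher in RA-sufficient PL than in In/B (1.77, SE 0.42, adjusted p = 0.00536) and missed the threshold between the PL groups (-3.65, adjusted p = 0.0591), which it passed without the second or the third RA-deficient library (-3.05 and -3.58, adjusted p = 0.037 and 0.0455). Col5a2, Col5a3 and Col27a1 were called in no comparison, with 0.491 to 1.63, 1.10 to 7.48 and 7.45 to 14.2 CPM.

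Collagen VI forms beaded filaments that join cells to the surrounding matrix, and its classic molecule holds chains of Col6a1, Col6a2 and Col6a3. The summed level of its 6 genes was 15.0 to 16.9 CPM in In/B, 40.9 to 48.3 in RA-sufficient PL and 83.3 to 88.6 in RA-deficient PL, so that RA-deficient PL was the highest group for this class. Col6a2 carried most of it in the PL groups, with 3.13, 9 and 7.63 CPM in In/B, 24.3, 24.4 and 29.4 in RA-sufficient PL and 59.4, 64.5 and 47.9 in RA-deficient PL. The groups formed 3 steps without overlap. Col6a2 was the one gene called in the same direction in all 3 comparisons, with log2 fold changes of 2.04 (SE 0.36, adjusted p = 0.00102) for RA-sufficient PL against In/B, 3.29 (SE 0.38, adjusted p = 0.000509) in RA-deficient PL against In/B, and 1.13 (SE 0.19, adjusted p = 0.00626) between the PL groups. With library size alone the last was 0.95, under the fold required.

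Col6a3 separated RA-deficient PL from both other groups. It was counted at 2.40, 1.74 and 2.20 CPM in In/B, 2.21, 1.27 and 1.32 in RA-sufficient PL and 11.6, 7.77 and 20.3 in RA-deficient PL, with log2 fold changes of 2.80 (SE 0.46, adjusted p = 0.00246) and 3.03 (SE 0.51, adjusted p = 0.00627) for RA-deficient PL, against In/B first and RA-sufficient PL after it. Both calls were kept with any library left out. Col6a1 gave 3.97, 2.00 and 2.88 CPM in In/B, 4.71, 5.64 and 7.54 in RA-sufficient PL and 12.2, 5.27 and 7.96 in RA-deficient PL. All PL libraries were above In/B, and the calls against In/B (1.07, adjusted p = 0.0315, and 1.68, adjusted p = 0.0274) were weak. The first was lost without In/B library 2 or 3 or RA-sufficient library 2 or 3 (0.82 to 1.11, adjusted p up to 0.121), and the other without In/B library 2 or 3 or RA-deficient library 1 (1.29 to 1.66, adjusted p up to 0.108) and with library size alone (1.36, adjusted p = 0.0567).

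Of the later-found chains of collagen VI, Col6a4 was called higher in RA-sufficient PL than in In/B. Its levels were 3.97, 2.65 and 2.49 CPM in In/B, 5.00, 9.15 and 8.34 in RA-sufficient PL and 5.32, 5.07 and 9.92 in RA-deficient PL, with a log2 fold change of 1.36 (SE 0.36, adjusted p = 0.00918) in RA-sufficient PL and 1.32 (adjusted p = 0.0566) in RA-deficient PL. Col6a6 had 0.727, 0.983 and 0.904 CPM in In/B, 2.58, 2.36 and 0.882 in RA-sufficient PL and 0.0800, 0 and 0 in RA-deficient PL. The RA-deficient values are 2 counts in a single library, and no fold is given. RA-deficient PL was called lower than In/B (adjusted p = 0.0479) and than RA-sufficient PL (adjusted p = 0.026), and each call was lost in 4 of 6 fits with a library removed, namely those without any In/B library (adjusted p up to 0.184), without any RA-sufficient library (adjusted p up to 0.111) and without the second RA-deficient library (adjusted p = 0.0758 and 0.0517). RA-sufficient PL was called higher than In/B only without RA-sufficient library 3 (1.55, adjusted p = 0.0281, against 1.19 and 0.0749 with it). Col6a5 ranged from 0 to 2.13 CPM and was not called.

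Peritubular and stromal markers had a higher summed level in both PL groups than in In/B. Of 10 tested, 5 were called higher and 1 lower in RA-sufficient PL than in In/B, and 4 higher and 1 lower in RA-deficient PL than in In/B, while 0 of 11 were called between the PL groups by edgeR's quasi-likelihood test, with a median log2 fold change of 0.06, 1 at an unadjusted p below 0.05 and 1 called by DESeq2. Over all genes, 45.3%, 23.0% and 15.6% were called in these 3 comparisons. The summed levels of the markers, 249 to 317 CPM in RA-sufficient and 232 to 340 in RA-deficient PL, overlapped, and those of In/B, 95.2 to 119 CPM, lay below both. Mylk, a kinase of smooth muscle contraction, made up most of the sum in the PL groups (218 ± 39.4 and 205 ± 53.1 CPM, against 53.7 ± 9.49 in In/B), with log2 fold changes of 2.08 and 2.11. Nr2f2, a nuclear receptor of stromal cells, went the other way, from 25 ± 1.75 CPM in In/B to 2.75 ± 1.26 in RA-sufficient PL (-3.14, adjusted p = 9.38e-05) and 2.89 ± 1.35 in RA-deficient PL (-2.94, adjusted p = 0.000846), and Lum, a fibroblast marker, held at most 6 counts in any library. Dcn and Pdgfra, also of this list, were called higher in each PL group than in In/B. Dcn stood at 3.85 ± 0.987 CPM in In/B, 12 ± 1.18 in RA-sufficient PL and 13.1 ± 3.03 in RA-deficient PL. Pdgfra stood at 3.99 ± 0.518, 12.9 ± 1.35 and 13 ± 6.11 CPM in the same order. Acta2, a further marker of the list, was called higher in RA-sufficient PL than in In/B (3.67, adjusted p = 0.000281). It had 234, 114 and 192 counts in the RA-sufficient libraries and fewer, 49, 21 and 116, in the deeper RA-deficient libraries for which Dcn and Pdgfra had similar means. Between the PL groups edgeR did not call it. The part of peritubular and stromal cell RNA in the higher Lamb2, Col1a2, Col3a1 and Col6a2 of the PL groups was not tested.

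Fibril-associated collagens sit on the surface of larger fibrils. Of 8 genes, 2 were called higher and 1 lower in RA-sufficient PL than in In/B, 1 higher and 1 lower in RA-deficient PL than in In/B, and 1, lower, in RA-deficient than in RA-sufficient PL, none of them far from the backgrounds of 45.3%, 23.0% and 15.6%. Col20a1 was counted at 2.29, 6.92 and 7.23 CPM in In/B, 42.1, 49.2 and 55 in RA-sufficient PL and 58.9, 59.3 and 56.0 in RA-deficient PL. Every PL library stood above In/B and the call was made in both, with log2 fold changes of 3.21 (SE 0.38, adjusted p = 0.00013) and 3.57 (SE 0.40, adjusted p = 0.000485). Col22a1, known from tissue junctions such as that of muscle and tendon, was instead highest in In/B, at 80.2, 61.9 and 57.7 CPM in In/B, 14.5, 24.1 and 25.8 in RA-sufficient PL and 39.5, 30.2 and 31.0 in RA-deficient PL. All PL libraries were below In/B, and it was called in RA-sufficient PL (-1.58, SE 0.24, adjusted p = 0.000517) but was under the fold required in RA-deficient PL (-0.82, SE 0.20, adjusted p = 0.015), which it passed with library size alone (-1.14, adjusted p = 0.00379).

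Col16a1, a minor fibril-associated collagen, was lowest in RA-deficient PL. It read 23.9, 22.7 and 25 CPM in In/B, 45.9, 30.1 and 24.0 in RA-sufficient PL and 5.96, 4.91 and 11 in RA-deficient PL, and was called lower there than in In/B (-1.55, SE 0.34, adjusted p = 0.00973) and than in RA-sufficient PL (-2.21, SE 0.41, adjusted p = 0.0094). Both calls were kept with any library left out, and no RA-deficient library reached the range of the other groups. Col14a1, found along mature collagen I fibrils, had 1.96, 1.66 and 1.98 CPM in In/B, 2.36, 6.85 and 7.06 in RA-sufficient PL and 4.24, 2.34 and 3.28 in RA-deficient PL. It was called higher in RA-sufficient PL than in In/B (1.60, SE 0.46, adjusted p = 0.0133), which was lost without the second or the third RA-sufficient library (1.39 and 1.37, adjusted p = 0.0535 and 0.057). Col19a1 had at most 4.04 CPM and was at 0 in the third In/B and the third RA-deficient library, and Col9a2, Col9a3 and Col12a1 were not called, at 0 to 2.36, 2.49 to 8.57 and 0.848 to 4.50 CPM.

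Among the remaining collagens, those that span the plasma membrane were lower in RA-sufficient PL where they were called. Col23a1 was found at 2.46, 2.08 and 2.09 CPM in In/B, 0.883, 0.728 and 0.441 in RA-sufficient PL and 1.92, 0.515 and 0.481 in RA-deficient PL, and was called lower in RA-sufficient PL than in In/B (-1.65, SE 0.46, adjusted p = 0.0117), but not without the third RA-sufficient library (-1.39, adjusted p = 0.0504). Col25a1, whose shed part was identified in amyloid plaques, was found at 6.09, 4.27 and 4.52, then 1.47, 2.18 and 2.25, then 3.04, 7.13 and 7.96 CPM in the same order, with RA-sufficient PL below all other libraries. It was called lower in RA-sufficient PL than in In/B (-1.27, SE 0.36, adjusted p = 0.0124) and missed the threshold between the PL groups (1.62, adjusted p = 0.0617), which it passed without the first RA-deficient library (1.94, adjusted p = 0.0415). Col13a1 and Col17a1, at 1.77 to 7.08 and 2.5 to 12.1 CPM, were not called.

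Col8a2, a network collagen of the cornea, gave 9, 8.88 and 8.99 CPM in In/B, 5.45, 2.30 and 1.46 in RA-sufficient PL and 7.80, 4.32 and 2.36 in RA-deficient PL. All PL libraries were below In/B, and the call in RA-sufficient PL (-1.51, SE 0.46, adjusted p = 0.0182) was lost without RA-sufficient library 2 or 3 (-1.35 and -1.16, adjusted p = 0.0687 and 0.0503). Col28a1, a collagen described around peripheral nerve, was counted at 2.63, 2.46 and 4.01 CPM in In/B, 10.5, 8.61 and 10.3 in RA-sufficient PL and 3.28, 4.99 and 3.02 in RA-deficient PL. RA-sufficient PL was above all other libraries, with log2 fold changes of 1.75 against In/B (SE 0.31, adjusted p = 0.00115) and of -1.38 in RA-deficient against RA-sufficient PL (SE 0.37, adjusted p = 0.0336), the latter lost without any RA-sufficient library or the first RA-deficient library (-1.28 to -1.48, adjusted p up to 0.117). Col7a1, the anchoring fibril collagen of skin, ranged from 3.84 to 16.1 CPM and was not called. Col8a1, Col10a1 and Col26a1 stayed under 1 CPM in every library and had too few counts to pass the filter in any comparison.

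Set side by side, 5 genes, Lama1, Lama2, Col4a3, Col4a4 and Col28a1, were called higher in RA-sufficient PL than in In/B and lower in RA-deficient than in RA-sufficient PL, with no call between RA-deficient PL and In/B. Col1a1 and Lama5 had the mirror image of this order. Another 5 genes, Lamb2, Col20a1, Col11a2, Col2a1 and Col6a1, were called higher in each PL group than in In/B and not between the PL groups. Col16a1, Col4a5 and Col6a6 were called lower in RA-deficient PL than in both other groups, and Col6a3 was called higher than in both. The share of all genes with each of these orders was not counted, so the orders are not shown to be particular to these genes. Calls of Col4a4, Col28a1, Lama5, Col2a1, Col6a1, Col4a5 and Col6a6 that place them here were lost in some fits with a library left out, as given above. That a gene was called in one comparison and not in another does not by itself show a difference, and between the PL groups the test is that of RA-deficient against RA-sufficient PL.

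Ordered by level per kilobase of exon within each group, Lama5 led in In/B at 16.0 ± 1.18 CPM per kilobase (SD, n = 3). It did not overlap with the next gene, Lamb2 at 9.62 ± 3.43, while Lamb2, Col5a1, Col1a1, Col22a1, Lamb1, Col18a1 and Lamc1, down to 4.08 ± 0.0900, each overlapped with the next. In RA-sufficient PL the order was Lamb2 at 57.1 ± 1.69, Col18a1 at 49.1 ± 4.94, Col20a1 at 11.6 ± 1.54 and Lama1 at 7.84 ± 0.872, and the first 3 were each apart from the next. In RA-deficient PL Lamb2 led again at 42.0 ± 3.21, above Lama5 at 18.7 ± 11.4 and Col20a1 at 13.8 ± 0.427, of which the latter pair overlapped.

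Of 8 pairs of these genes that lie next to each other, 3 are head to head, 4 follow each other on a strand and 1 is tail to tail. Col6a2 and Col6a1, 85161 bases apart on chromosome 10, were both called higher in the PL groups than in In/B, though the ratio of Col6a2 to Col6a1 per length was 1.39 ± 0.977 in In/B, 2.35 ± 0.337 in RA-sufficient PL and 4.07 ± 2.09 in RA-deficient PL. Of Col6a6, Col6a5 and Col6a4 on chromosome 9, Col6a6 was called lower in RA-deficient PL, Col6a4 higher in RA-sufficient PL and Col6a5 in no comparison. Col3a1 was called where Col5a2, 24614 bases away tail to tail, was not.

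Collagen chains need enzymes and chaperones before they leave the cell, and 26 of the 31 listed genes for this were tested for RA-sufficient PL against In/B. Of these, 3 were called higher and 9 lower, beside 26.0% and 19.3% of all genes, so that the share called was near the background of 45.3%, with a median log2 fold change of -0.36 beside 0.04 over all genes. Plod1, a lysyl hydroxylase of collagen, was lower (275 ± 58.7 CPM in In/B and 47.4 ± 7.28 in RA-sufficient PL, log2 fold change -2.48, adjusted p = 1.65e-05), and P4ha1, a catalytic subunit of prolyl 4-hydroxylase, was higher (17.2 ± 1.58 and 66.9 ± 13.9, log2 fold change 2.02, adjusted p = 4e-05). For RA-deficient PL against In/B (background 23.0%), 1 of 26 was called higher and 4 lower, and between the PL groups (background 15.6%) 1 of 25 was higher and 3 lower. P4ha1 was among the latter, with 22.9 ± 3.47 CPM in RA-deficient PL (-1.56, adjusted p = 0.00397), and Bmp1, the protease that trims procollagen ends, was the one called higher (6.29 ± 0.299 in RA-sufficient and 27.2 ± 11.6 in RA-deficient PL, log2 fold change 2.11, adjusted p = 0.00777).

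Other proteins of the basement membrane did not follow a single direction. Of 17 tested, 5 were called higher and 8 lower in RA-sufficient PL than in In/B, 1 higher and 1 lower in RA-deficient PL than in In/B, and 3 higher and 4 lower in RA-deficient than in RA-sufficient PL, against backgrounds of 45.3%, 23.0% and 15.6% of all genes in the 3 comparisons. Nid1, which links laminin to collagen IV, rose from 11.6 ± 1.03 CPM in In/B to 133 ± 43.6 in RA-sufficient PL (log2 fold change 3.57, adjusted p = 1.2e-05), and was lower again in RA-deficient PL at 13.8 ± 0.22 (-3.29, adjusted p = 0.000576). Hspg2, the core of the proteoglycan perlecan, fell from 262 ± 15.1 to 48.4 ± 14.3 (-2.38, adjusted p = 3.04e-05) and was higher in RA-deficient than in RA-sufficient PL at 181 ± 47.2 (1.91, adjusted p = 0.00347). Pxdn, the peroxidase that cross-links collagen IV, fell from 219 ± 14.8 to 15.8 ± 3.31 (-3.74, adjusted p = 7.14e-06), in the comparison in which Col4a1 to Col4a4 were called higher.

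Receptors and matrix proteases were counted in the same way. Of 12 receptors tested, 4 were called higher and 1 lower in RA-sufficient PL than in In/B, near the background of 45.3%. Ddr1, a kinase receptor for collagen, was the leading one (12 ± 4.68 CPM in In/B, 116 ± 7.32 in RA-sufficient PL and 20 ± 3.81 in RA-deficient PL, with log2 fold changes of 3.33, adjusted p = 1.67e-05, and -2.55, adjusted p = 0.000544, for the first step and between the PL groups), and Itga3, an integrin chain for laminin, was the one lower (-2.11, adjusted p = 0.00168). For RA-deficient PL, 2 of 11 were higher and 1 lower than in In/B (background 23.0%), and 1 of 12 was higher and 2 lower than in RA-sufficient PL (background 15.6%). Of 8 proteases and inhibitors, 6 were called higher in RA-sufficient PL than in In/B, 1 higher in RA-deficient PL than in In/B, and 4 lower in RA-deficient than in RA-sufficient PL, and these were all of the calls, beside backgrounds of 26.0%, 11.3% and 11.1% in these directions. Mmp14, a membrane-bound collagenase, was at 11.6 ± 2.15, 62.8 ± 2.55 and 9.13 ± 2.5 CPM in In/B, RA-sufficient and RA-deficient PL, and was called in the first and last of these comparisons (2.5, adjusted p = 1.31e-05, and -2.79, adjusted p = 0.000823). Of 11 interstitial matrix proteins, 4 were higher and 3 lower in RA-sufficient PL than in In/B, 1 of 10 was lower in RA-deficient PL than in In/B and 2 of 11 were lower between the PL groups, beside 45.3%, 23.0% and 15.6% of all genes called.

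Other somatic markers stood at lower levels. Leydig markers summed to 10.2 to 16.6 CPM in In/B, 40.6 to 46.5 in RA-sufficient PL and 12 to 24.8 in RA-deficient PL, with 4 of 5 tested called higher in RA-sufficient PL than in In/B, 0 of 5 called in RA-deficient PL against In/B and 1 of 6 lower between the PL groups. Insl3, which defines mature Leydig cells, was at 0 in 8 of 9 libraries. Macrophage and blood markers summed to 4.86 to 5.60, 8.54 to 19.5 and 5.55 to 11.2 CPM, with 4 of 5 higher in RA-sufficient PL than in In/B and 0 called in either other comparison, and the haemoglobin genes Hbb-b1 and Hba-a1 were at 0 in all 9. Endothelial markers summed to 9.07 to 13.7, 9.94 to 13 and 10.1 to 24.4 CPM, with 1 of 6 called, higher, in RA-sufficient PL against In/B and 0 in the others. Where edgeR called 0 of these 3 lists, at most 1 gene of a list had an unadjusted p below 0.05 and DESeq2 called at most 1. Germ cell markers were called lower in RA-sufficient PL than in In/B for 4 of 10 and higher for 1, and higher in RA-deficient PL for 4 of 10 against each other group. For these 4 lists the background was 45.3% of all genes in RA-sufficient PL against In/B. It was 23.0% in RA-deficient PL against In/B and 15.6% between the PL groups.

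**Figure D5:**
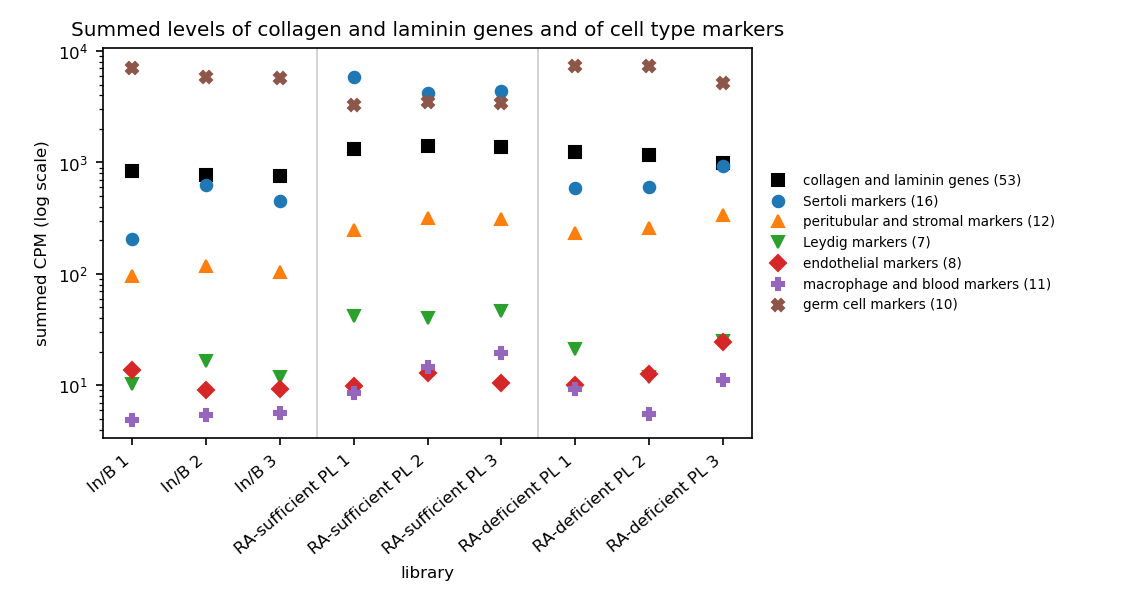
Summed CPM (vertical axis, logarithmic) of the 53 collagen and laminin genes and of 6 lists of cell type markers in each library, with the number of genes in parentheses. The Sertoli sum stood highest in the 3 RA-sufficient PL libraries, the peritubular and stromal sum was higher in both PL groups than in In/B, and the collagen and laminin sum lay between 751 and 1393 CPM throughout.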

How the data were processed

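RNA of pooled, sorted cells was sequenced as stranded mRNA libraries (TruSeq) in 3 groups of 3 libraries. Per the labels and the study's methods, the authors trimmed reads with cutadapt 1.9, aligned them to mm9 with STAR 2.5.2b and counted them with featureCounts. The annotation and strand setting are not given in the sources used here. The deposited values are raw counts per gene for 24505 genes, of which 26 names had been changed to dates and none of those was a collagen or laminin gene.

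Each pair of groups was fitted alone with edgeR 4.0.16 (R 4.3.3, filterByExpr, TMM, robust quasi-likelihood F-test, Benjamini-Hochberg adjustment over all genes tested). The standard error (SE) is the absolute log2 fold change divided by the square root of F. Levels are CPM scaled by TMM over the 9 libraries, and levels per length use exon lengths of GENCODE M1, which matched all 53 genes, Col26a1 by an older name. In simulated data in which 200 genes were shifted by 2 on the log2 scale, the tests recovered 84.5% (RA-sufficient PL against In/B), 62.0% (RA-deficient PL against In/B) and 59.5% (RA-deficient against RA-sufficient PL).

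The study's methods give 2 or 3 independent cell preparations for sequencing, and the labels do not tie libraries to separate litters, so p-values measure the spread between these libraries. The genes and lists were chosen with earlier results of these data known. Values per library are given for called genes whose mean reached 1 CPM in a group compared, and for 10 major chains whatever their result. Of each further list, called genes among the 4 with the lowest adjusted p were named. Lum, Sox9, Wt1, Gata4, Insl3 and the germ cell markers given by counts were chosen after their values were seen. Alternatives were RLE scaling, library size alone, other filters and thresholds, all 9 libraries in a fit, a replicate block, DESeq2 1.42.0 and leaving out each library. Values of 1 gene are not reported here, though it is counted in all totals.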

Additional observations from a re-analysis of the deposited data

Results flagged for a closer look

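By the direct test of the PL groups in edgeR, 14 of the 50 genes tested differed between RA-sufficient and RA-deficient PL, beside 15.6% of all genes. Their log2 fold changes, RA-deficient minus RA-sufficient PL, were -3.64 for Col4a3, -2.71 for Col4a4, -2.5 for Col18a1, -2.45 for Lama1, -2.21 for Col16a1, -2.18 for Lama2, -1.96 for Col4a5 and -1.38 for Col28a1 among those lower in RA-deficient PL. Among those higher they were 3.03 for Col6a3, 2.47 for Col1a1, 2.36 for Lama5, 1.13 for Col6a2 and 1.11 for Lamb1. Col6a6 was lower in RA-deficient PL with an adjusted p of 0.026 and no fold. Of the 6 fits with a library left out, the calls of Lama5 and Lamb1 were lost in 5. Those of Col28a1, Col4a5 and Col6a6 were lost in 4, and that of Col4a4 in 2. With library size alone, Lamb1 and Col6a2 were not called. Without the third RA-deficient library 28.2% of all genes were called. Groups of 3 libraries are too small for a test of single outlying libraries.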

How the results depend on the processing

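When the fold itself was tested against 2, 16 genes were called between RA-sufficient PL and In/B (13 higher, 3 lower), 4 between RA-deficient PL and In/B (4 higher, 0 lower, with 4 lower at an unadjusted p below 0.05 and 4 lower by DESeq2 in the usual test) and 6 between the PL groups (2 higher, 4 lower). These are of 49, 49 and 50 tested, and 30.6%, 7.86% and 4.73% of all genes were called in that test. At an adjusted p of at most 0.01 the lower calls of the first comparison were 4, and the calls of the others were 6 (5 higher, 1 lower) and 8 (3 higher, 5 lower). The shares of all genes called at that threshold were 39.7%, 15.7% and 6.64%. With library size alone, 3 genes were higher in RA-deficient than in RA-sufficient PL, and the mean summed level of RA-sufficient PL was 1438 CPM in place of 1366. Leaving out single libraries gave 25 to 29, 7 to 15 and 9 to 16 calls in the 3 comparisons, with 17 to 20, 5 to 10 and 3 to 5 higher and 7 to 9, 1 to 5 and 5 to 11 lower. In those fits 42.7% to 44.3%, 17.6% to 25.7% and 7.97% to 28.2% of all genes were called. Direction changed only for values that were not called. For RA-deficient PL against In/B, Lama2 was -0.28 with library size alone, -0.09 with all 9 libraries in a fit, -0.01 with the replicate block and -0.30 to 0.16 with a library left out, Lamb1 was -0.11 with library size alone, and Col4a4 and Col4a3 ran from -0.26 to 1.03 and from -0.28 to 0.93 with a library left out. Between the PL groups Col23a1 ran from -0.43 to 0.84 and Col6a4 from -0.52 to 0.03. The cause was not tested.

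Same-numbered libraries correlated at -0.268 to 0.134 in their deviations from the group means, so that the numbers did not pair the samples. With the replicate block, 26, 11 and 10 genes were called, beside 42.4%, 21.6% and 12.3% of all genes. Of the collagen and laminin genes, 8 were at 0 in an RA-deficient library and at 10 counts or more in another, against 0 in In/B and 0 in RA-sufficient PL. The share of all genes with this pattern was not counted, so it is not shown to be a trait of these genes. The RA-deficient libraries detected 14769 to 15327 genes at 25048240 to 27042274 counts. The other libraries detected 16758 to 18434 genes at 12612959 to 26684393 counts. The reason for the lower detection in RA-deficient PL was not tested.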
